A study of Homo sapiens with 18 samples.

Results

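The 9 genes described here are the neurogenic basic helix-loop-helix (bHLH) factors ATOH1, NEUROD1, NEUROD2, NEUROD4, NEUROD6, NEUROG1, NEUROG2, NHLH1 and NHLH2. They were chosen as a gene family, with earlier results of these data known, and are 9 of the 25369 genes counted. Of the 9, 5 passed the filter on low counts and were tested among 14850 genes. Poly(A) RNA was sequenced from D425 and D458, established lines of Group 3 medulloblastoma, a childhood tumour of the cerebellum. Each line was transduced with a non-targeting hairpin (control) or with one of a pair of short hairpins against EYA2, a transcriptional coactivator and phosphatase: hairpins 6 and 8 in D425, and hairpins 7 and 8 in D458. All 6 groups, controls included, were kept in puromycin at 1 µg/mL for 48 h, sorted for the top 10% of zsGreen fluorescence (the marker carried by the hairpin vector) and left for 24 h before RNA was taken. Each group had 3 biological replicates. Each line stands for 1 tumour line only, and no other agent was given.

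Neurogenic bHLH factors bind E-boxes (CANNTG) as dimers with the broadly expressed E proteins and switch neural progenitors towards neurons. The proneural factors NEUROG1, NEUROG2 and ATOH1 act early, in progenitors, and turn on the NEUROD and NHLH genes, which act in cells that have begun to differentiate. ID proteins hold E proteins away from them, and the HES and HEY repressors downstream of Notch shut their genes off. In the cerebellum, ATOH1 marks granule cell progenitors of the rhombic lip, and NEUROD1 their differentiating descendants.

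The 18 libraries held 21260369 to 31552051 counts. EYA2 averaged 27.9 CPM (counts relative to library size, scaled by TMM) in the D425 controls and 11.9 and 14.1 with hairpins 6 and 8. The D458 controls averaged 70.3, against 48.1 for hairpin 7 and 20.3 for hairpin 8. Against the control of the same number EYA2 was lower in 3 of 3 pairs with each hairpin, but the fall with D458 hairpin 7 did not pass the test (log2 fold change -0.55, adjusted p = 0.137 by the edgeR quasi-likelihood test with Benjamini-Hochberg adjustment). It passed with the replicate number as a block (adjusted p = 0.00692) and when the 9 D458 libraries alone were fitted (adjusted p = 0.00819). The D425 hairpin 8 fall was lost without D425 control replicate 1 (adjusted p = 0.0865), hairpin 8 replicate 2 (0.0571) or hairpin 8 replicate 3 (0.0601), with log2 changes from -1.28 to -0.51 over the single-library omissions. It was also lost in the 9 D425 libraries alone (adjusted p = 0.0759) and with replicate number 2 left out of every group (adjusted p = 0.168). The hairpin 6 fall passed without any single library (-1.53 to -0.76) and was lost with number 2 (adjusted p = 0.154) or number 3 (adjusted p = 0.0542) left out of every group. Of 8 Group 3 markers, 6 averaged at least 1 CPM in every group, and EOMES and NPR3 were near 0. Summed fibroblast markers (6 genes) were higher with the hairpins, at 18.5 to 33.1 CPM in the D425 controls against 42.6 to 85.2 and 50.9 to 95.6 with hairpins 6 and 8, and at 6.89 to 8.44 in the D458 controls against 34.3 to 55.6 and 32.2 to 60.9 with hairpins 7 and 8. COL3A1, one of them, had 0 counts in the D458 controls and 7 and 3 with hairpins 7 and 8, summed over 3 libraries. COL1A2 averaged 0.134 to 0.380 CPM over the 6 groups. In D425, COL1A1 averaged 3.50 CPM in the controls and 28.9 and 25.02 with hairpins 6 and 8. DCN averaged 0.560 there, against 0.287 and 0.602. In D458, PDGFRB averaged 4.19 CPM in the controls and 17.5 and 17.8 with hairpins 7 and 8. LUM averaged 1.43 there, against 8.42 and 10.5. DCN was also higher in D458 (log2 fold changes 3.57 and 3.43). The part of these markers in the changes below was not tested. Glial markers summed to at most 1.83 CPM in any library. Endothelial markers (5 genes) summed to 1.56 to 2.91 CPM in the D425 controls and to 3.57 to 6.72 over the D425 hairpin libraries. Most of this was KDR, with means of 1.98 CPM in the controls and 4.12 and 4.99 with hairpins 6 and 8. PECAM1, VWF and CDH5 averaged at most 0.161 CPM in the D425 groups. CLDN5 averaged 0.164 CPM in the controls and 0.0634 and 0.413 with hairpins 6 and 8.

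Between the controls of the lines NEUROD1 and NEUROG2 passed the test, and the other tested members did not. This leaves a difference open for NEUROD4 (11 counts in D458 and 14 in D425) and NHLH1 (log2 difference 0.54, SE 0.48). Different members were called with the hairpins in each line, though for NEUROG1 the hairpin 8 effects did not differ between the lines by the main test. In D425, NEUROD1 rose with both hairpins and NEUROG1 fell with hairpin 6. In D458, NEUROG2 rose with both hairpins from near 0, and no other member passed the test. With D425 hairpin 6, 2 of the 5 tested members were called (adjusted p under 0.05), against 14.1% of all genes tested. With D425 hairpin 8 it was 1 of 5 against 21.7%, with D458 hairpin 7 1 of 5 against 22.6%, and with D458 hairpin 8 1 of 5 against 23.2%. Between the control groups of the lines 2 of 5 differed, against 62.8% of all genes, and 2 of 5 had a hairpin 8 effect that differed between the lines (1 higher in D458 and 1 lower), against 11.8% of all genes (6.19% higher, 5.65% lower). Between the hairpins of 1 line, 0 of 5 members were called and 0% of all genes by edgeR, and DESeq2 called 6 genes in D425 and 4 in D458. The unadjusted edgeR p was under 0.05 for 519 genes in D425 and 274 in D458. Both are less than a share of 0.05 of the 14850 genes, the share that uniform p-values would give. Each of these member counts is 0, 1 or 2 of 5, too few to set the group apart from the other genes. The comparisons of a line share its 3 controls. In bulk RNA, fewer cells expressing a gene and less RNA per cell cannot be told apart.

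**Figure D1:**
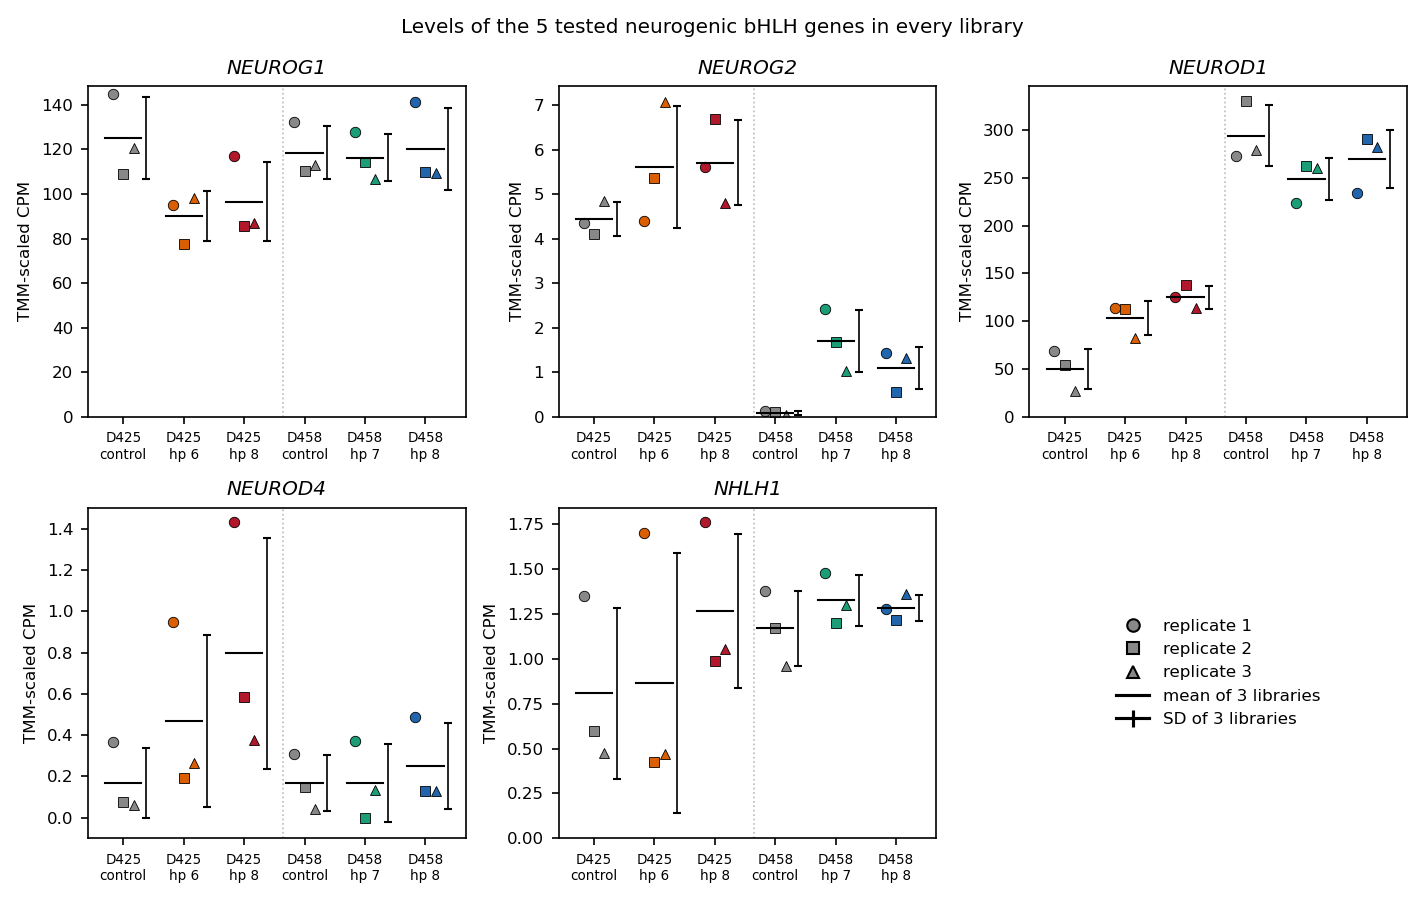
TMM-scaled CPM of the 5 tested members (y axis, 1 panel per gene) in the 18 libraries by line and hairpin (hp). Symbols mark replicates 1, 2 and 3, black lines the mean and bars the SD of 3 libraries. NEUROD1 stands above its controls in all 6 D425 hairpin libraries, NEUROG2 above its controls in all 6 D458 hairpin libraries, and replicate 1 is the highest NEUROD4 library of every group.

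Set by length, the members spanned several orders of magnitude. In D425 controls NEUROG1 was the highest at 74.9 CPM per kb of exon, then NEUROD1 at 17.5, NEUROG2 at 1.94, NHLH1 at 0.316 and NEUROD4 at 0.0425. In D458 controls NEUROD1 led at 103 CPM per kb, then NEUROG1 at 71.1, NHLH1 at 0.456, NEUROD4 at 0.0421 and NEUROG2 at 0.0397. So the lines shared NEUROG1 at a like level and the order of NEUROD1 and NEUROG1 was turned between them, while NEUROG2 lay midway in D425 and last of the 5 in D458. The last pair in D458 rested on 11 and 6 counts over 3 libraries and did not differ beyond their spread. ATOH1 (7 counts in all 18 libraries), NHLH2 (3 counts) and NEUROD6 (1 count) stayed at or under 2 counts in every library, under the 3 counts that a reading of 0 allows, so neither presence nor a change could be read for them.

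The 250 bases before the annotated starts of the members that moved are printed here, with NEUROD4, a tested member that holds 2 E-boxes, because neurogenic bHLH factors act on E-boxes and on each other's genes. Sequences are from RefSeq (GRCh38.p14, all 9 members matched) and read 5′ to 3′ on the strand of the gene. They lie at chr5:135535965-135536214 (NEUROG1, minus strand), chr4:112516181-112516430 (NEUROG2, minus), chr2:181680518-181680767 (NEUROD1, minus) and chr12:55019724-55019973 (NEUROD4, plus). Capitals mark a TATA-type run (TATATAA), an E-box, or the 8 bases that end both NEUROG windows.
NEUROG1: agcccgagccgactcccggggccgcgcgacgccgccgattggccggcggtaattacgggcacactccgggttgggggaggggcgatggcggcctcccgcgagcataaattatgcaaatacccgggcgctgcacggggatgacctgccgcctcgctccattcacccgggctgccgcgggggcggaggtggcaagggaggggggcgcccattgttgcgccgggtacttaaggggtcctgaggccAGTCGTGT
NEUROG2: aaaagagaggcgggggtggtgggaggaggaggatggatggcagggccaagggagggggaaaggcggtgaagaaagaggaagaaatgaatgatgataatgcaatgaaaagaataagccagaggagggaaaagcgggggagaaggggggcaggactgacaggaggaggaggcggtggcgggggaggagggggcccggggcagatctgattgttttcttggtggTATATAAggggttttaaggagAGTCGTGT
NEUROD1: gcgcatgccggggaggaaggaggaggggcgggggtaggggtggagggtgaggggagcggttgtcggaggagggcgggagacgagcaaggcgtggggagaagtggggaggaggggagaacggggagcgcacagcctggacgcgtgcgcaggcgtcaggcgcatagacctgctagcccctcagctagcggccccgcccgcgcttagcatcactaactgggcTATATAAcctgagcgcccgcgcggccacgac
NEUROD4: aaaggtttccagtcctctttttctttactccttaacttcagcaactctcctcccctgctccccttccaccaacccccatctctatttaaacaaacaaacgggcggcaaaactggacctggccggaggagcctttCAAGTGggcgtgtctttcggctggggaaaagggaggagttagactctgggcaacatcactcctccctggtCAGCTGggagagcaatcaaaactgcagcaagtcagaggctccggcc

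The 3 windows of the members that moved hold no E-box (CANNTG, both strands), whereas 61.8% of 35116 promoter windows of the same length hold at least 1. NEUROD4 has 2, at -116 (CAAGTG) and -46 (CAGCTG) from the start, NEUROD2 has 3, NEUROD6 has 4, and ATOH1 and NHLH1 have 1 each. The TATA-type run lies at -31 in NEUROD1 and at -29 in NEUROG2, and is found in 2.42% of windows. NEUROG1 and NEUROG2 both end in AGTCGTGT just before the start, as 2 of the 35116 windows do, these 2. These matches are of letters only, and say nothing of binding further away. ATOH1, NEUROD2, NEUROD6 and NHLH2 were not tested for a change. NEUROD4, with 2 E-boxes, passed in D425 when the replicate number was a block. A link of E-boxes with the changes was not tested.

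**Figure D2:**
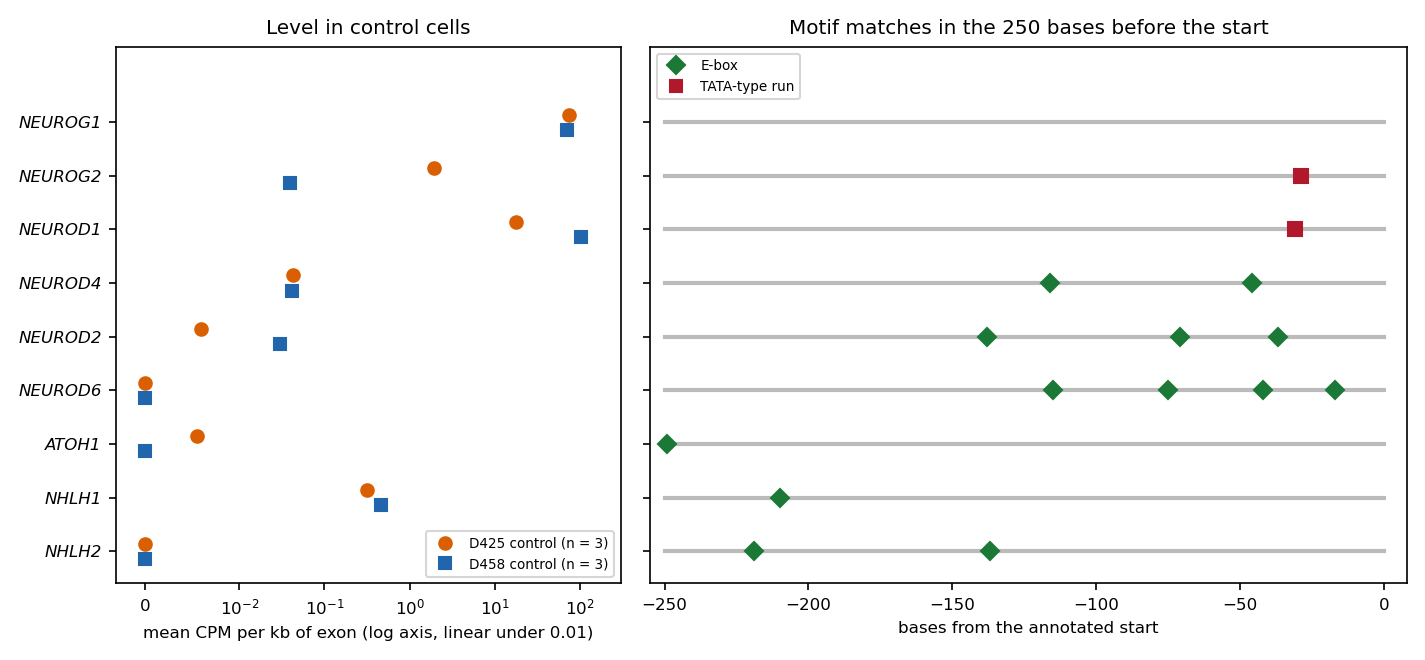
Left, mean CPM per kb of exon of each of the 9 members in D425 and D458 control cells (log axis, linear under 0.01, n = 3). Right, E-box and TATA-type matches by distance in bases from the annotated start over the 250 bases before it (1 of the NHLH2 windows is drawn). NEUROG1, NEUROG2 and NEUROD1, the members called with a hairpin, carry no E-box there, and the other 6 members carry 1 to 4. Of those 6, only NEUROD4 and NHLH1 were tested for a change. A link of E-boxes with the changes was not tested.

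NEUROG1, a proneural factor, was among the most abundant members in both lines and moved little. The D425 controls had 145, 109 and 121 CPM in replicates 1 to 3, against 95.2, 77.4 and 98.3 with hairpin 6 and 117, 85.8 and 86.8 with hairpin 8. Every hairpin 6 library lay below every control, and the hairpin 8 libraries overlapped the controls, though each lay below the control of its own number. The log2 fold change was -0.47 ± 0.14 (SE, adjusted p = 0.0402) with hairpin 6 and -0.37 ± 0.14 (adjusted p = 0.0759) with hairpin 8. With the replicate number as a block the hairpin 8 change also passed (adjusted p = 0.00121), as it did without hairpin 8 replicate 1 (-0.53, adjusted p = 0.0245) and without replicate number 1 (-0.41, adjusted p = 0.00822).

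The hairpin 6 call on NEUROG1 was close to the threshold. It was lost without D425 control replicate 1 (-0.35, adjusted p = 0.131), control replicate 3 (0.0913), or hairpin 6 replicate 1 (0.0737), 2 (0.153) or 3 (0.0562), and under upper quartile scaling (0.0771). In D458, the controls had 132, 110 and 113 CPM, hairpin 7 had 128, 114 and 107, and hairpin 8 had 141, 110 and 109. These groups overlapped almost wholly, and the log2 fold changes were -0.03 (95% interval -0.33 to 0.28) and 0.02 (-0.28 to 0.33). The hairpin 8 effects of the lines differed by 0.39 ± 0.20, which did not pass (adjusted p = 0.224) unless the replicate number was a block (adjusted p = 0.0140). Between the controls of the lines NEUROG1 differed by -0.08 ± 0.14 (D458 minus D425, 95% interval -0.38 to 0.23, adjusted p = 0.666).

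NEUROG2, the other proneural factor of this family, was nearly silent in D458 controls and was read at a low level after EYA2 was targeted. The D458 controls had 3, 2 and 1 counts, hairpin 7 had 59, 35 and 23, and hairpin 8 had 38, 13 and 31. No hairpin library came near the controls, and the lowest held 13 counts. Summed over 3 libraries and scaled by depth, the counts stood in a ratio of 19.3 for hairpin 7 (117 against 6, 95% counting interval 8.62 to 53.8) and 12.5 for hairpin 8 (82 against 6, 5.51 to 35.1). The log2 fold changes were 4.18 ± 0.50 (adjusted p = 8.53e-05) and 3.56 ± 0.52 (adjusted p = 3.59e-04), and both passed without any single library and without any replicate number. The mean levels reached were 1.71 ± 0.70 and 1.10 ± 0.47 CPM (SD, n = 3), against 0.0909 ± 0.0461 in the controls. Hairpin 7, with the smaller mean fall of EYA2, had the higher mean, but the hairpins differed by -0.63 (hairpin 8 minus hairpin 7, 95% interval -1.36 to 0.10), which did not pass.

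In D425 NEUROG2 was read in every library. The controls had 4.35, 4.10 and 4.86 CPM, and the hairpin means were 5.61 ± 1.36 (hairpin 6) and 5.71 ± 0.95 (hairpin 8). The groups overlapped, and neither change passed (0.34, 95% interval -0.30 to 0.97, and 0.36, -0.27 to 1.00). The D458 controls lay far below those of D425 (log2 difference -5.55 ± 0.47, adjusted p = 3.31e-08, a count ratio of 0.0201 with a counting interval of 0.00733 to 0.0441), and with the hairpins D458 still lay under every D425 library. The hairpin 8 effect was larger in D458 by 3.20 ± 0.62 (adjusted p = 0.00419). That difference passed without any single library, but not when replicate number 2 (3.78, adjusted p = 0.0718) or number 3 (2.55, adjusted p = 0.118) was left out of every group. The reference annotation has an antisense RNA, AC023886.1, across NEUROG2, and the strand setting of the counting is not given in the sources used here, so reads of this pair cannot be told apart.

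NEUROD1, a differentiation factor of the granule and other neuronal lineages, was raised by both hairpins in D425. The D425 controls had 68.8, 53.8 and 27.1 CPM, hairpin 6 had 114, 112 and 82.6, and hairpin 8 had 125, 137 and 113. All 6 hairpin libraries lay above all 3 controls, whose own spread was wide. The log2 fold changes were 1.05 ± 0.23 with hairpin 6 (2.07-fold, adjusted p = 0.00704) and 1.33 ± 0.23 with hairpin 8 (2.51-fold, adjusted p = 0.00103). Control replicate 3 was the lowest of the 18 libraries: without it the changes were the smallest of the single-library omissions, 0.75 and 1.03, and both still passed. Without replicate number 2 neither passed (adjusted p = 0.166 and 0.0582), and in the 9 D425 libraries alone the hairpin 6 change did not (adjusted p = 0.0521).

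In D458, where NEUROD1 started higher, it did not rise. The controls had 272, 331 and 279 CPM, hairpin 7 had 223, 262 and 260, and hairpin 8 had 234, 291 and 282. Every hairpin 7 library lay below every control, and hairpin 8 overlapped them. The log2 fold changes, -0.24 (95% interval -0.72 to 0.24, adjusted p = 0.458) and -0.13 (-0.61 to 0.35, adjusted p = 0.714), did not pass, and their intervals leave out the size seen in D425. The difference of the hairpin 8 effects was -1.46 ± 0.32 (D458 minus D425, adjusted p = 0.00995), and was lost when replicate number 2 was left out of every group (-1.37, adjusted p = 0.208). Between the controls, NEUROD1 was 5.90-fold higher in D458 (2.56 ± 0.24, adjusted p = 1.68e-07). The raised D425 levels, 103 ± 17.7 and 125 ± 12.0 CPM, thus remained under the lowest D458 library, at 223.

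CERKL, a ceramide kinase-like gene that overlaps NEUROD1 on the same strand in the reference annotation, was looked at because reads in shared stretches could be given to either gene (it was chosen after its values were seen). The D425 controls had 1.76, 0.820 and 0.667 CPM of CERKL, hairpin 6 had 2.02, 1.90 and 3.07, and hairpin 8 had 2.43, 2.16 and 2.11. It rose in D425 as NEUROD1 did, by 1.13 ± 0.26 (adjusted p = 0.00807) and 1.06 ± 0.26 (adjusted p = 0.00858), at levels far under those of NEUROD1. These calls were lost without control replicate 3 (adjusted p = 0.0567 and 0.0587) and, for hairpin 6, without hairpin 6 replicate 3 (0.0569). In D458 CERKL fell from 47.9 ± 0.58 CPM to 24.9 ± 1.52 and 23.9 ± 1.90 (adjusted p = 0.00347 and 0.00231; the log2 change with hairpin 7 was -0.94 ± 0.19), where NEUROD1 did not pass. How overlapping reads were counted is not given, and their part in either gene's values was not tested.

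**Figure D3:**
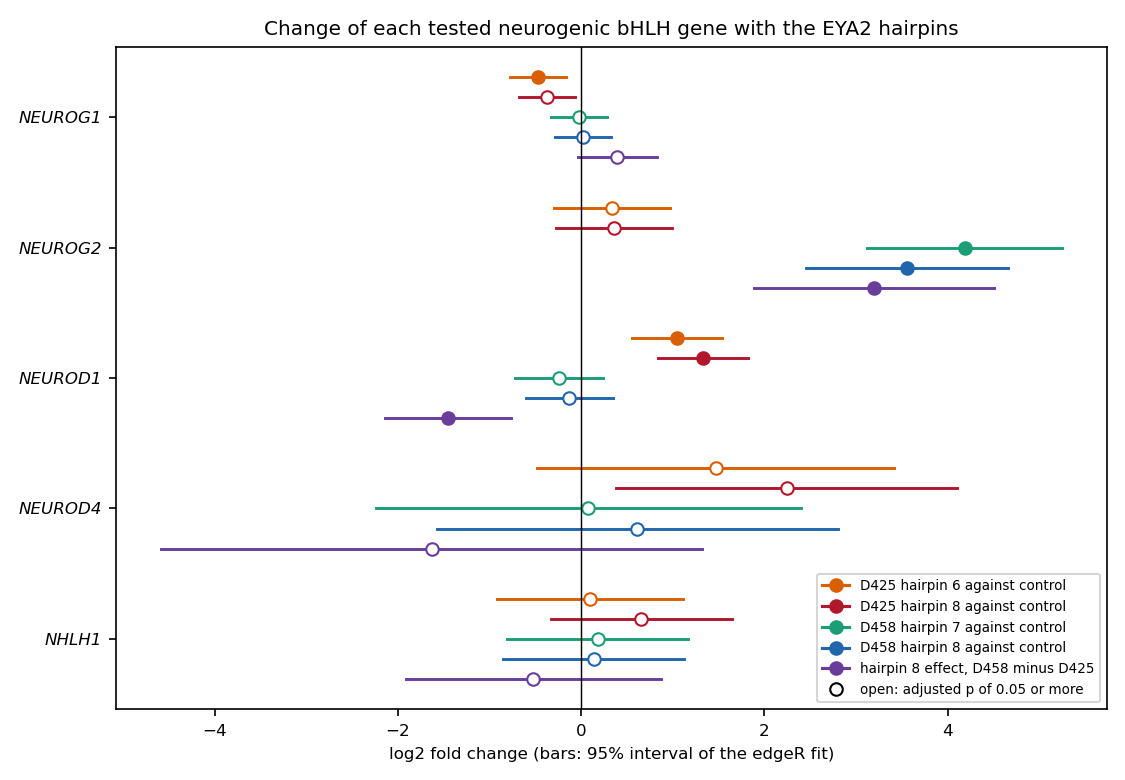
Log2 fold change (x axis) of the 5 tested members with each hairpin against the control of its line, and the difference of the hairpin 8 effects (D458 minus D425). Bars are 95% intervals from the edgeR fit and open symbols have an adjusted p of 0.05 or more. NEUROG2 lies at 4.18 and 3.56 in D458 and NEUROD1 at 1.05 and 1.33 in D425, while NEUROD4 and NHLH1 have wide intervals.

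NEUROD4, a NEUROD gene read at very low counts, was higher in hairpin libraries of D425 without passing the main test. The D425 controls had 10, 2 and 2 counts, hairpin 6 had 24, 5 and 8, and hairpin 8 had 43, 16 and 11. Each hairpin library lay above the control of its number, and with hairpin 8 all 3 lay above all controls. The log2 fold changes were 1.47 ± 0.92 (adjusted p = 0.325) and 2.24 ± 0.88 (adjusted p = 0.0788). With the replicate number as a block both passed (1.48, adjusted p = 0.0443, and 2.29, adjusted p = 0.00169). Hairpin 8 also passed without control replicate 1 (3.45, adjusted p = 0.0358) and without replicate number 1 (2.72, adjusted p = 0.0171).

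Replicate 1 was the highest NEUROD4 library in 6 of 6 groups, a pattern shared by at most 4.06% of the 14850 genes. That share credits tied libraries, such as those at 0 counts, to replicate 1. The shares for replicates 2 and 3, 1.76% and 1.41%, do not gain from ties with replicate 1 and so are not like it. Replicate 1 of each group carries an earlier date in the labels than replicates 2 and 3. In D458 the control libraries held 7, 3 and 1 NEUROD4 counts, those of hairpin 7 held 9, 0 and 3, and those of hairpin 8 held 13, 3 and 3. The groups overlapped, and the changes of 0.08 ± 1.10 and 0.61 ± 1.03 did not pass. At these counts the 95% intervals ran from -2.24 to 2.40 and from -1.57 to 2.80.

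NEUROD2, which acts in maturing neurons, was removed by the filter. It had 1, 0 and 0 counts in D425 controls, 8, 2 and 0 with hairpin 6, and 23, 0 and 3 with hairpin 8. Of the 26 counts with hairpin 8, replicate 1 held 23, so the groups overlapped at 0. The D458 control libraries held 2, 2 and 0 counts, those of hairpin 7 held 4, 6 and 2, and those of hairpin 8 held 7, 0 and 0. No test was made.

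NHLH1, a bHLH gene switched on in newly formed neurons, was read at about 1 CPM and did not pass with any hairpin. The D425 controls had 37, 16 and 15 counts, hairpin 6 had 43, 11 and 14, and hairpin 8 had 53, 27 and 31. Replicate 1 was again the highest of each D425 group, and the groups overlapped. The log2 fold changes were 0.09 ± 0.48 and 0.66 ± 0.47 in D425 (95% intervals -0.92 to 1.11 and -0.33 to 1.64). The D458 control libraries held 31, 24 and 23 counts, those of hairpin 7 held 36, 25 and 29, and those of hairpin 8 held 34, 28 and 32, and the changes were 0.18 ± 0.47 and 0.14 ± 0.47. Between the controls the difference, 0.54 ± 0.48, passed only without replicate number 1 (0.99, adjusted p = 0.0212).

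The genes whose levels ran closest to each member were named by Pearson correlation of log2 CPM over the 18 libraries, with each line's mean removed, among 12738 genes. The points share libraries and their depth, so the values are descriptions. For NEUROD1 these were SGOL1-AS1 (r = 0.973, an antisense transcript and so uncertain), DLG3 (0.955), a scaffold protein of synapses, and LOC729950 (0.944). DLG3 went from 45.4 ± 19.4 CPM in D425 controls to 102 ± 9.58 and 108 ± 5.64 with the hairpins. For NEUROG2 they were VEGFC (0.934), a growth factor for lymphatic vessels, YPEL5 (0.931) and MBD5 (0.927). VEGFC went in D458 from 4.66 ± 0.43 CPM to 15.9 ± 3.96 and 12.2 ± 4.59. For NEUROG1 they were GZF1 (0.909), RTN1 (0.893) and RIPK1 (0.869), and for NHLH1 MSANTD2 (0.875), CEND1 (0.871) and RALGAPA2 (0.868).

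The chromosomal neighbours of the members were looked at after the changes were seen. They are tested genes at 1 CPM or more that were matched by symbol. A median over 50 genes hides single genes that move, so it cannot tell whether a change was regional, and this was not tested. The 50 such genes nearest NEUROD1 (25 on each side, in RefSeq order) had median log2 fold changes of 0.01 and 0.11 in D425. NEUROD1 itself had 1.05 and 1.33, and CERKL, which overlaps it, had 1.13 and 1.06. Those around NEUROG2 had medians of 0.17 and 0.19 in D458, against 4.18 and 3.56, and 0.44 between the control groups, against -5.55. Those around NEUROG1 had medians of 0.01 and 0.02 in D425, against -0.47 and -0.37.

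The E proteins, the dimer partners of all members, were all tested. TCF4 rose in D425 and TCF12 in D458, and the difference between the lines passed for TCF4 alone. TCF4 averaged 24.1 ± 1.95 CPM in D425 controls, and had 42.5, 33.0 and 35.0 with hairpin 6 and 40.7, 38.2 and 27.7 with hairpin 8. No hairpin library overlapped the controls, and TCF4 rose by 0.61 ± 0.14 (adjusted p = 0.00834) and 0.56 ± 0.14 (adjusted p = 0.0103). In D458 TCF4 changed by -0.18 and -0.21 without passing, and the hairpin 8 effects differed by -0.77 ± 0.20 (D458 minus D425, adjusted p = 0.0202). TCF12 rose in D458, by 0.25 ± 0.07 (adjusted p = 0.0230) and 0.26 ± 0.07 (adjusted p = 0.0197), from 119 ± 4.34 CPM to 141 ± 11.1 and 142 ± 9.51. TCF3, the most abundant, passed with no hairpin. Thus 1 of 3 passed, higher, in each comparison, where 7.31%, 11.6%, 11.5% and 12.1% of all genes were called higher with D425 hairpins 6 and 8 and D458 hairpins 7 and 8.

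These changes were small, and the calls were lost without some single libraries. Such an omission can lower the number of all genes called, from 2101 to 926 with D425 hairpin 6 without control replicate 3. TCF4 was lost with hairpin 6 without hairpin 6 replicate 1 (adjusted p = 0.0505), and with hairpin 8 without D425 control replicate 2 or hairpin 8 replicate 1 (at most 0.0585). Its difference between lines was lost without either of these, D458 control replicate 1 or D458 hairpin 8 replicate 3 (at most 0.0590). TCF12 was lost with each hairpin without D458 control replicate 2 or 3 or replicate 1 of the hairpin (at most 0.115 and 0.0892).

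The ID genes, which encode inhibitors of E proteins, were all tested. None passed in D425, and ID2 alone passed in D458, higher. So 1 of 4 passed with each hairpin there, where 11.5% and 12.1% of all genes were called higher with hairpins 7 and 8. ID2 had 16.6, 12.2 and 10.2 CPM in D458 controls, 21.5, 19.2 and 15.7 with hairpin 7 and from 16.9 to 24.6 with hairpin 8. Replicate 1 was high in every D458 group, and hairpin 7 overlapped the controls. The changes were 0.53 ± 0.19 (adjusted p = 0.0481) and 0.59 ± 0.19 (adjusted p = 0.0314). Both were lost without D458 control replicate 2 or 3 or replicate 1 of the hairpin, and hairpin 7 also without its replicate 2 (at most 0.184 and 0.182). ID1 and ID3, the most abundant of the 4, and ID4 passed with no hairpin. ID4 had 7.82, 4.64 and 3.71 CPM in D458 controls. It had 10.4, 9.49 and 9.14 with hairpin 7 and 10.3, 8.39 and 8.28 with hairpin 8, all above every control.

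Of the 9 HES and HEY repressors, 6 were tested. In D425, HEYL and HES1 rose with both hairpins, so 2 of 6 passed, higher, where 7.31% and 11.6% of all genes were called higher with hairpins 6 and 8. HEYL had 14.8, 10.1 and 7.21 CPM in D425 controls, 25.2, 30.9 and 28.9 with hairpin 6 and 28.1, 28.3 and 34.0 with hairpin 8, with no overlap. The rise was 1.41 ± 0.18 with hairpin 6 (adjusted p = 1.41e-04) and 1.50 ± 0.18 with hairpin 8 (6.27e-05), and both passed without any single library. In D458 HEYL started higher, at 35.6 ± 2.33 CPM, and did not pass (0.24 and 0.29), and the hairpin 8 effects differed by -1.20 ± 0.24 (adjusted p = 0.00529).

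HES1, the classic repressor downstream of Notch, had 1.97, 1.45 and 0.826 CPM in D425 controls, 2.26, 3.15 and 3.87 with hairpin 6 and 2.79, 3.18 and 4.05 with hairpin 8. It rose by 1.13 ± 0.34 (adjusted p = 0.0360) and 1.24 ± 0.34 (adjusted p = 0.0166). With hairpin 6 it was lost without D425 control replicate 2 or 3 or hairpin 6 replicate 2 or 3 (at most 0.186), and with hairpin 8 without control replicate 3 or hairpin 8 replicate 3 (at most 0.0952). In D458 HES1 averaged 1.38 CPM in the controls and 2.37 and 2.24 with hairpins 7 and 8, and did not pass. Its hairpin 7 libraries there lay above every control, and hairpin 8 overlapped them. HES6, a family member that counters HES1 and favours neurogenesis, fell in D458 with hairpin 7 from 401, 327 and 364 CPM to 220, 196 and 234 (-0.75 ± 0.20, adjusted p = 0.0150), the 1 of 6 called there, where 11.1% of all genes were called lower. It had 210, 250 and 280 with hairpin 8, also below every control, without passing. The hairpin 7 call was lost without D458 control replicate 1 or hairpin 7 replicate 1 or 2 (at most 0.0608).

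Of 11 other neural bHLH genes 3 were tested, and ATOH8 rose in D425 (1 of 3 with each hairpin, where 7.31% and 11.6% of all genes were called higher). ATOH8, a distant relative of ATOH1, ran from 8.10 to 38.3 CPM in the D425 controls, and had 80.2, 67.8 and 68.3 with hairpin 6 and 81.1, 72.7 and 78.4 with hairpin 8. The hairpin libraries lay close together, above the widely spread controls. The changes were 1.75 ± 0.34 (adjusted p = 0.00324) and 1.86 ± 0.34 (adjusted p = 0.00155), and both passed without any single library, with values of 1.36 to 2.47 and 1.46 to 2.58. In D458 the controls had 49.8, 56.3 and 56.1 CPM. Hairpin 7 had 59.5, 68.9 and 68.2 and hairpin 8 had 56.6, 67.3 and 74.9, all above every control, but neither change passed. OLIG2, a factor of oligodendrocyte and motor neuron progenitors, and ATOH7, a retinal proneural factor, passed with no hairpin.

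**Figure D4:**
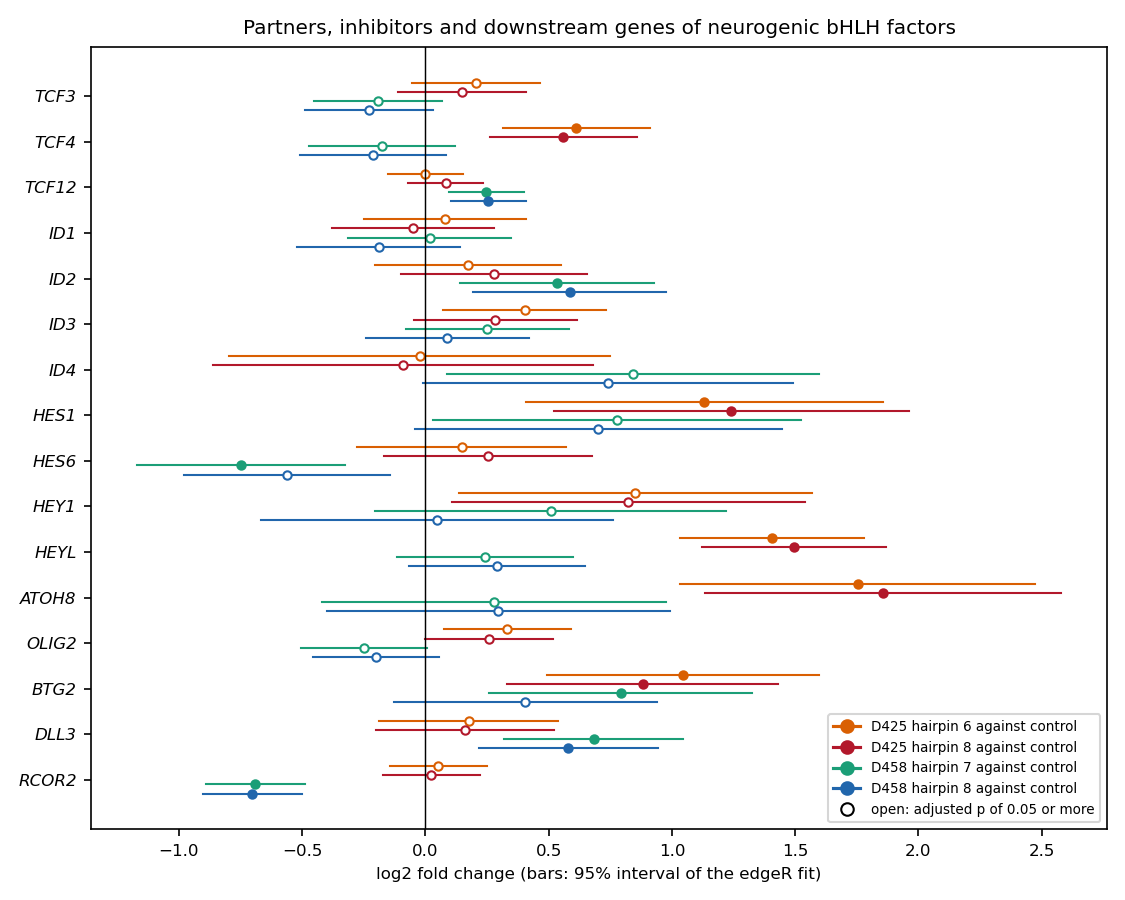
Log2 fold change (x axis, bars are 95% intervals) of E proteins, ID genes, HES and HEY repressors, other bHLH genes and downstream genes with each hairpin against the control of its line. Open symbols have an adjusted p of 0.05 or more. HEYL, HES1, ATOH8 and TCF4 were called in D425 alone and RCOR2, DLL3, ID2 and TCF12 in D458 alone. The difference between lines passed for HEYL, ATOH8, TCF4 and RCOR2.

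Of 18 genes known to lie downstream of neurogenic bHLH factors, 14 were tested. With D425 hairpin 6, 1 rose and none fell, and with hairpin 8, 5 rose and none fell, with list medians of 1.04 and 1.56 against 0.01 and 0.02 over all genes. With D458 hairpin 7, 2 rose and 1 fell, and with hairpin 8, 1 rose and 1 fell (medians 0.22 and 0.45, against 0.01 and 0.01). The share of all genes called higher was 7.31%, 11.6%, 11.5% and 12.1% in these comparisons, and called lower 6.84%, 10.1%, 11.1% and 11.1%. The list medians take in the genes that were not called. With D425 hairpin 8 the medians of the other lists ran from -0.04 (rhombic lip) to 1.50 (neuronal). Between the controls the median of the downstream list was 2.18 (D458 minus D425), against 0.01 over all genes, so the list started lower in D425.

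BTG2, an antiproliferative gene of neurogenic divisions, had 22.6, 27.6 and 18.6 CPM in the D425 controls, 30.6, 59.5 and 51.7 with hairpin 6 and 33.0, 55.1 and 38.5 with hairpin 8. All hairpin libraries were above the controls (1.05 ± 0.26, adjusted p = 0.0138, and 0.88 ± 0.26, adjusted p = 0.0248). D458 hairpin 7 also raised BTG2 (0.79 ± 0.25, adjusted p = 0.0349), and the value for hairpin 8, 0.41, missed the threshold. These 3 calls were lost without 3, 3 and 4 of 6 single libraries: D425 control replicate 3 or hairpin 6 replicate 2 or 3 (at most 0.0794), D425 control replicate 1 or 3 or hairpin 8 replicate 2 (at most 0.115), and any D458 control or hairpin 7 replicate 1 (at most 0.161).

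SRRM4, a neuronal splicing regulator, had 3.00, 0.224 and 0.191 CPM in the D425 controls and 6.65, 3.95 and 3.51 with hairpin 8. It rose by 2.07 ± 0.61 (adjusted p = 0.0246). With hairpin 8 the early neuronal factors EBF1 (2.21, adjusted p = 0.0389) and RUNX1T1 (2.44, adjusted p = 0.0272) and the stress-response gene GADD45G (1.89, adjusted p = 0.0259) also rose, named because their count is small. SRRM4, GADD45G and RUNX1T1 were lost without D425 control replicate 2 or 3 or hairpin 8 replicate 1 (at most 0.0975, 0.159 and 0.220), and EBF1 without those or hairpin 8 replicate 2 or 3 (at most 0.118). Over the single-library omissions the log2 changes ran from 1.54 to 4.48 for SRRM4, 1.64 to 5.21 for EBF1, 1.43 to 2.87 for RUNX1T1 and 1.24 to 2.99 for GADD45G. The highest value was the one without D425 control replicate 1 for SRRM4, EBF1 and GADD45G, and without hairpin 8 replicate 2 for RUNX1T1.

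In D458, RCOR2, a corepressor of neural progenitors, fell, and DLL3, a Notch ligand of committed neuronal precursors, rose. RCOR2 had 57.2, 64.9 and 65.7 CPM in the controls, 35.1, 40.7 and 40.6 with hairpin 7 and 33.1, 41.2 and 41.2 with hairpin 8. It fell by 0.69 (SE 0.10, adjusted p = 2.29e-04) and by 0.70 (SE 0.10, adjusted p = 2.06e-04) on the log2 scale, and passed without any single library. In D425 RCOR2 did not pass, and the hairpin 8 effects differed by -0.73 ± 0.13 (adjusted p = 0.00288). DLL3 rose from 23.3, 23.2 and 25.5 CPM to 46.2, 32.3 and 37.0 with hairpin 7 (0.68 ± 0.17, adjusted p = 0.0109) and to 42.8, 30.4 and 34.4 with hairpin 8 (0.58 ± 0.17, adjusted p = 0.0234). It was lost with hairpin 7 without hairpin 7 replicate 1 (0.0706), and with hairpin 8 without D458 control replicate 1 or 2 or hairpin 8 replicate 1 (at most 0.128).

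Of 12 factors of the rhombic lip and granule lineage, 7 were tested. With D425 hairpins 6 and 8, 2 and 3 of 7 were called, and with D458 hairpins 7 and 8, 1 and 3 of 7, against 14.1%, 21.7%, 22.6% and 23.2% of all genes. In D425, MEIS1 and MEIS2, homeobox factors of the granule lineage, rose with both hairpins (0.45 ± 0.12 and 0.49 ± 0.12 for MEIS1, 0.45 ± 0.11 and 0.48 ± 0.11 for MEIS2, adjusted p = 0.0153, 0.00661, 0.0102 and 0.00512), and ZIC1 fell with hairpin 8 (-0.39 ± 0.10, adjusted p = 0.0132). The hairpin 8 calls of MEIS1 and MEIS2 passed without any single library. Those of hairpin 6 were lost without D425 control replicate 3, and also without control replicate 2 or hairpin 6 replicate 1 for MEIS1 (at most 0.0874) and hairpin 6 replicate 3 for MEIS2 (at most 0.0753). ZIC1 with hairpin 8 was lost without D425 control replicate 2 or hairpin 8 replicate 3 (at most 0.0599).

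In D458, BARHL2, a homeobox factor of rhombic lip derivatives, rose from 3.29, 3.96 and 3.55 CPM to 6.00, 6.95 and 5.60 with hairpin 7 and to 5.53, 6.83 and 6.25 with hairpin 8, with no overlap. The changes were 0.78 ± 0.17 (adjusted p = 0.00544) and 0.78 ± 0.17 (adjusted p = 0.00509), and passed without any single library. The hairpin 8 effect was higher in D458 than in D425 by 0.95 ± 0.24 (adjusted p = 0.0176). With hairpin 8, TBR1 also rose (0.87 ± 0.25, adjusted p = 0.0202) and ZIC1 fell (-0.30 ± 0.10, adjusted p = 0.0450). TBR1, outside the naming rule, was lost without D458 control replicate 1 or hairpin 8 replicate 2 (at most 0.0762), and ZIC1 without 5 of 6 libraries, all but hairpin 8 replicate 2 (at most 0.267).

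Of 14 neuronal differentiation genes 11 were tested, and 2 rose and 1 fell in each hairpin comparison. These 3 of 11 stand against 14.1%, 21.7%, 22.6% and 23.2% of all genes called with D425 hairpins 6 and 8 and D458 hairpins 7 and 8. In D425 the genes were MAPT, a microtubule protein of axons, and SYP, a synaptic vesicle protein, which rose, and NEFL, a neurofilament, which fell. SYP had 58.6, 21.4 and 18.2 CPM in the controls, 98.8, 73.9 and 63.8 with hairpin 6 and 124, 71.8 and 82.8 with hairpin 8. It rose by 1.27 ± 0.33 (adjusted p = 0.0195) and 1.50 ± 0.34 (adjusted p = 0.00560). MAPT, at 0.366 to 0.447 CPM in the controls, rose by 1.50 ± 0.39 (adjusted p = 0.0157) and 1.76 ± 0.38 (adjusted p = 0.00418). NEFL, at 0.895 to 0.984 CPM in the controls, changed by -2.21 ± 0.42 (adjusted p = 0.00262) and -1.38 ± 0.37 (adjusted p = 0.0139).

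The hairpin 8 calls of SYP and MAPT and the hairpin 6 call of NEFL passed without any single library. Over these omissions SYP ran from 0.98 to 1.99 with hairpin 6 and from 1.21 to 2.23 with hairpin 8, highest without D425 control replicate 1, and NEFL from -2.84 to -1.65 and from -2.002 to -1.14, lowest without replicate 1 of the hairpin. With hairpin 6, SYP and MAPT were lost without D425 control replicate 2 or 3, SYP also without hairpin 6 replicate 1 and MAPT without hairpin 6 replicate 3 (at most 0.0923 and 0.0670). With hairpin 8, NEFL was lost without control replicate 3 or hairpin 8 replicate 2 or 3 (at most 0.0598). In D458 the genes called were others, though of the 11 only SYP passed the test of the difference between lines (-1.58 ± 0.46, adjusted p = 0.0389). That was lost without 9 of 12 libraries, among them every D458 library of the comparison, D425 control replicates 2 and 3 and D425 hairpin 8 replicate 1 (at most 0.104). DCX, which binds microtubules in migrating neurons, rose by 1.57 ± 0.46 with hairpin 7 (adjusted p = 0.0231) and 1.66 ± 0.46 with hairpin 8 (0.0175). STMN2 rose by 0.91 ± 0.26 (0.0220) and 0.95 ± 0.26 (0.0182), while NEFM changed by -0.76 ± 0.21 (adjusted p = 0.0174) and -0.70 ± 0.21 (adjusted p = 0.0251).

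DCX and STMN2, outside the naming rule, were lost with each hairpin without D458 control replicate 2 or 3 or replicate 1 of the hairpin (at most 0.124 and 0.0945), and the DCX change with hairpin 8 was 1.08 without hairpin 8 replicate 1. NEFM was lost with hairpin 7 without D458 control replicate 1 or hairpin 7 replicate 1 (at most 0.0936), and with hairpin 8 without any of the controls or hairpin 8 replicate 1 (at most 0.118). Of the 45 calls of genes of these 7 lists over the 4 hairpin comparisons, 13 passed without each single library. Leaving replicate number 1, 2 or 3 out of every group, which leaves 2 libraries a group, kept 41, 3 and 6 of the 45.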

How the data were processed

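Poly(A) RNA of 18 libraries was read as the whole-number counts per gene symbol that the authors deposited in 1 table. The submitters' processing notes name HTSeq, TopHat2, Bowtie2, Picard, SAMtools, FastQC and bcl2fastq, with builds hg19 and GRCh37. Their versions and the strand and overlap settings of the counting were not given in the sources used here. From the counts, genes were kept with filterByExpr (minimum count 10; 14850 kept, 10519 removed) and scaled by TMM, and 1 edgeR quasi-likelihood model was fitted to all 18 libraries by group (12 residual degrees of freedom). A gene was called where the p adjusted by Benjamini and Hochberg over the 14850 genes was under 0.05. Tools were edgeR 4.0.16 and, as an alternative, DESeq2 1.42.0, with limma 3.58.1, in R 4.3.3. The fit was tested on simulated data. Depth ran from 21260369 to 31552051 counts; counting intervals and the floor of 3 counts cover counting error only.

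Exon lengths and overlaps are from GENCODE v29 (GRCh38). The members and lists were chosen with earlier results of these data known. The text names all members, EYA2, the E protein and ID genes, up to 4 genes per list by smallest adjusted p, and the 3 nearest patterns per member, and marks others. Libraries of 1 replicate number share a number in their labels (7, 9 or 10), whose meaning the labels do not give. In number 7 the lines carry different dates. Deviations from group means of same-number libraries correlated at 0.127 to 0.730 in D425 and 0.258 to 0.856 in D458 (9 of 9 pairs over 0.1 in each). Between different numbers 4 and 5 of 18 pairs were over 0.1, up to 0.287 and 0.471. The best match in another group of the line had the same number for 16 of 18 libraries, but not for D425 control replicates 2 and 3. The main fit left the number out. Numbers were read as pairs in the pair counts, and a fit with the number as a block was an alternative. Other alternatives were DESeq2, other filters and scaling, fits within a line, and leaving out each library or number.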

Additional observations from a re-analysis of the deposited data

Results flagged for a closer look

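Hairpin 8 was the one hairpin used in both lines. Its effect differed between the lines for 2 of 5 tested members and 6 genes of the lists. The test was an edgeR quasi-likelihood test of the difference (D458 minus D425, Benjamini-Hochberg adjusted p). By list, 1 of 3 E proteins, 1 of 6 HES and HEY, 1 of 3 other bHLH and 1 of 14 downstream genes differed. So did 1 of 7 rhombic lip and 1 of 11 neuronal genes, and 0 of 4 ID genes. Over all 14850 genes tested, 11.8% differed, so these counts do not set the lists apart. NEUROD1 had a difference of -1.46 ± 0.32 (SE, adjusted p = 0.00995). NEUROG2 had a difference of 3.20 ± 0.62 (adjusted p = 0.00419). Among partners and repressors, TCF4 differed by -0.77 (adjusted p = 0.0202), HEYL by -1.20 (adjusted p = 0.00529) and ATOH8 by -1.56 (adjusted p = 0.0418). RCOR2 differed by -0.73 (adjusted p = 0.00288), BARHL2 by 0.95 (adjusted p = 0.0176) and SYP by -1.58 (adjusted p = 0.0389).

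For NEUROD1, NEUROG2, HEYL, RCOR2 and BARHL2 the difference passed without any single library. ATOH8 was lost without 10 of 12 libraries (at most 0.102; it passed without D425 control replicate 1 or 3) and SYP without 9 of 12 (at most 0.104; it passed without D425 control replicate 1 or D425 hairpin 8 replicate 2 or 3). TCF4 was lost without 4 of 12, named in the report. EYA2 itself fell further with hairpin 8 in D458 (-1.79) than in D425 (-0.98), a difference of -0.81 that did not pass (adjusted p = 0.177). It passed with the replicate number as a block (-0.89, adjusted p = 0.00668), without D425 control replicate 1 (-1.28, adjusted p = 0.00595) and with replicate number 1 left out of every group (-0.99, adjusted p = 0.0175). The part of EYA2 in the differences above was not tested.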

How the results depend on the processing

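Groups of 3 limit every call, and members under about 1 CPM (NEUROD4, NHLH1, NEUROG2 in D458 controls) are limited by depth. The rise of NEUROG2 in D458 and the control differences of NEUROD1 and NEUROG2 passed under every alternative run. With the replicate number as a block, the number of genes called was 4134 and 5521 with D425 hairpins 6 and 8, 5937 and 5888 with D458 hairpins 7 and 8, 3934 for the difference and 1 between the D458 hairpins; members called with D425 hairpin 8 went from 1 to 3. List calls over the 4 hairpin comparisons went with the block from 4 to 7 (E proteins), 11 to 24 (downstream), 5 to 13 (HES and HEY), 2 to 5 (ID), 12 to 27 (neuronal), 2 to 5 (other bHLH) and 9 to 17 (rhombic lip); apart from those given in the report, the block changed no other call of a member. In fits within a line they were 2 (E proteins), 9 (HES and HEY) and 1 (ID), and with no filter 6 (downstream). Between the hairpins of a line DESeq2 called 6 and 4 genes, and the D458 fit alone 2. Members called with D425 hairpin 6 were 1 with an average CPM of at least 1, 1 with upper quartile scaling and 0 in the D425 fit.

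Leaving out libraries gave 116 to 3439 and 513 to 4146 genes called with D425 hairpins 6 and 8, 663 to 2910 and 818 to 3311 with D458 hairpins 7 and 8, 75 to 2322 for the difference and 0 to 16 between the D425 hairpins. Members called ran from 0 to 2, 0 to 3 (D425 hairpins 6 and 8) and 0 to 2 (the difference). With 1 replicate number left out of every group, list calls ran from 0 to 2 (E proteins), 2 to 17 (downstream), 1 to 12 (HES and HEY), 0 to 6 (ID), 0 to 21 (neuronal), 0 to 4 (other bHLH) and 0 to 12 (rhombic lip). Upper quartile scaling moved the share of called genes that were higher from 51.1% to 62.8% (D458 hairpin 7) and from 52.1% to 63.4% (D458 hairpin 8).

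Signs turned for uncalled values only. NEUROD4 between the controls was 0.0086 with upper quartile scaling and 0.018 with the block, and NEUROG1 with D458 hairpin 7 was 0.014 with an average CPM of at least 1 and 0.024 with upper quartile scaling. Without single libraries or numbers, NEUROD4 ran from -0.84 to 1.21 (controls), -1.18 to 0.92 (D458 hairpin 7), -0.33 to 1.45 (D458 hairpin 8) and -0.43 to 1.82 (D458 hairpin 8 against 7). NEUROG1 ran from -0.18 to 0.045 (controls), -0.065 to 0.24 (D425 hairpin 8 against 6), -0.084 to 0.075 and -0.10 to 0.12 (D458 hairpins 7 and 8) and -0.093 to 0.13 (8 against 7). NEUROG2 ran from -0.14 to 0.34 and CERKL from -0.24 to 0.23 (D425 hairpin 8 against 6). NHLH1 ran from -0.84 to 0.68 (D425 hairpin 6), -0.0080 to 0.29 (D458 hairpin 8) and -0.12 to 0.048 (8 against 7). The causes were not tested.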
